A study of Mus musculus with 6 samples.

Results

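The mitochondrial carrier family was taken as every probe set that the platform annotation names by exactly 1 symbol beginning with Slc25a, or by Ucp1, Ucp2, Ucp3, Mtch1 or Mtch2. This gave 75 probe sets of 37 genes among 22626 probe sets of 12393 named genes. In 31 of the 37 genes at least 1 probe set was bright enough to be tested, and 58 probe sets of the family were tested in all. Another 16 listed relatives were not analysed here, among them the citrate carrier Slc25a1, the aspartate-glutamate carrier Slc25a12 and Ucp2.

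RNA was measured in the livers of 3 mice given an adenovirus encoding PFK-2/FBPase-2 that lacks its bisphosphatase activity (BPD) and of 3 mice given an adenovirus encoding green fluorescent protein (GFP), with 1 array per mouse. All 6 were male KK/H1J mice, a strain with inherited obesity and diabetes of many genes, 12 to 14 weeks old and about 35 g in weight, fed freely, and both viruses went into the tail vein 7 days before the livers were taken. The labels conflict on the age of BPD mouse 28, where 1 field gives a lower bound of 2 weeks and another 12, the value used here. The controls also carry an adenovirus, and no uninjected liver was among the samples. The comparison asks how the liver's carrier transcripts differ when an enzyme form that keeps fructose 2,6-bisphosphate high is expressed. Albumin (Alb), apolipoprotein A-I (Apoa1) and transthyretin (Ttr), made by hepatocytes, lay among the brightest probe sets of every array, with signals from 14784 to 25757.

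Carriers of this family are nuclear-encoded proteins, most of which sit in the inner mitochondrial membrane and exchange a metabolite of the matrix for one of the cytosol. They let ATP out and ADP and phosphate in, move citrate, malate and oxoglutarate, bring fatty acids in as acylcarnitines, and pass ornithine, citrulline, aspartate and glutamate between the compartments of the urea cycle. In liver they therefore stand between glycolysis, gluconeogenesis, ureagenesis and fat synthesis, which run partly inside and partly outside the mitochondrion. A few members lie elsewhere, such as Slc25a17 in peroxisomes and Mtch1, Mtch2 and Slc25a46 in the outer mitochondrial membrane.

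The deposited signals share a trimmed mean near 500, whereas their medians ran from 174 to 197 in BPD and from 135 to 157 in GFP arrays. Values were put on a log2 scale and centred on each array's median. The same fit was repeated on the signals as deposited and after quantile normalization, since the choice moves the differences. The median BPD minus GFP difference of all 8151 tested genes was -0.22 after centring, 0.081 as deposited and -0.060 after quantile normalization. A gene is called higher or lower where the limma adjusted p is under 0.05, and differences are BPD minus GFP on the log2 scale after centring, ± SE, unless another scaling is named. Signals are the deposited linear values. No scan date or other batch is given in the files used here.

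One carrier stood far from the rest. Slc25a4, the adenine nucleotide translocase of heart and muscle (also called ANT1), rose 5.27-fold, while 11 carriers were called lower after centring and 19 of the 31 were not called. Of all tested genes 8.75% were called higher and 22.2% lower (30.9% either way), against 3.23% and 35.5% of the carriers. With the deposited scaling 2 carriers were higher and 5 lower, beside 17.2% and 11.1% of all genes (28.3% either way). After quantile normalization 1 was higher and 3 lower, beside 12.6% and 12.9% (25.6% either way). Leaving out BPD mouse 28 or GFP mouse 31 cut the 12 calls to 6 in each case. The share of all genes called in those fits is not given here, and fewer mice make a call harder for any gene. On the centred scale the groups were apart with BPD above for 1 carrier and with BPD below for 16 of 31, beside 13.3% and 36.4% of all genes. Called the same way under all 3 scalings were Slc25a4, higher, and Slc25a13, Slc25a33 and Slc25a42, lower, which is 3.23% of the carriers against 8.38% of all genes for higher and 9.68% against 9.24% for lower (17.6% of all genes either way). The share of carriers that fell under every scaling was thus near that of all genes. The median carrier difference was -0.38 after centring, -0.083 as deposited and -0.14 after quantile normalization. Relative to the median of all genes in the same fits this was -0.16, -0.16 and -0.085.

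**Figure D1:**
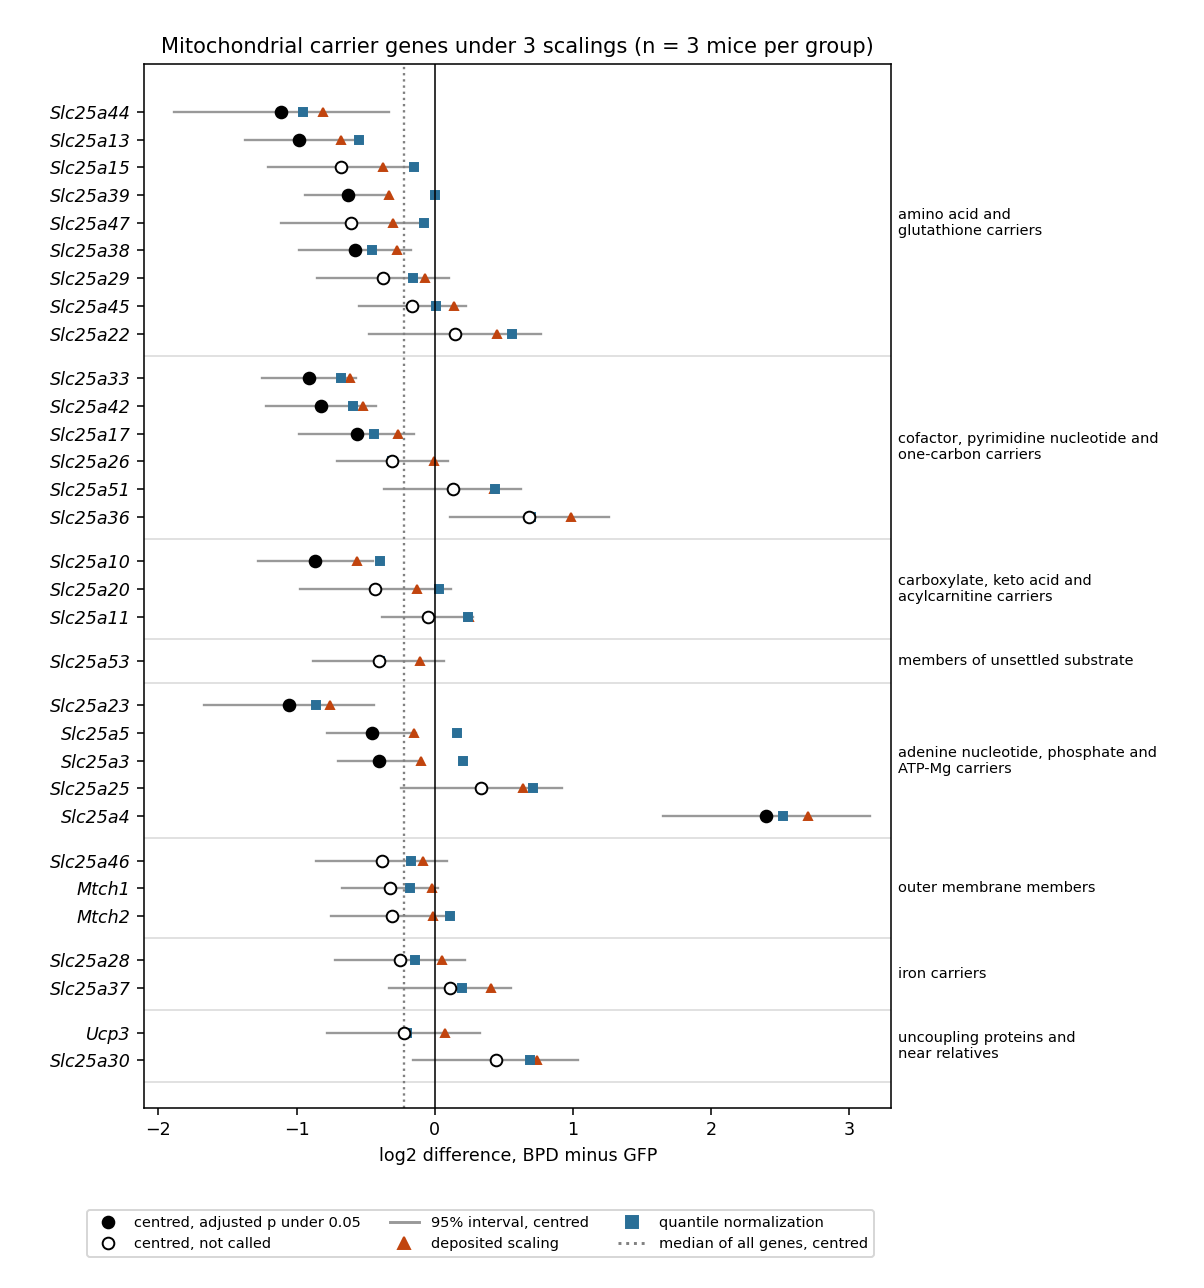
Log2 difference between BPD and GFP livers for the 31 tested carriers, grouped by role, under 3 scalings of the same arrays (n = 3 mice per group, horizontal lines are 95% intervals of the centred fit, dotted line the median of all genes at -0.22). Slc25a4 at 2.40 lies apart from all other carriers under each scaling, and for 9 genes the markers fall on both sides of 0. For Slc25a26, Slc25a36, Slc25a53 and Ucp3 the quantile marker lies behind the circle.

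The promoter windows of the adenine nucleotide carrier that rose, of its close relative Slc25a5 that did not, and of the 3 carriers lower under all scalings are shown because the results turn on these genes. Each window runs from 250 bases before to 50 bases after the start of the gene, 5′ to 3′ on the gene's strand, from RefSeq with build GRCm38.p6. Capitals mark matches, on either strand, to the letters searched.

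Slc25a4 (chr8:46211013-46211312, minus strand): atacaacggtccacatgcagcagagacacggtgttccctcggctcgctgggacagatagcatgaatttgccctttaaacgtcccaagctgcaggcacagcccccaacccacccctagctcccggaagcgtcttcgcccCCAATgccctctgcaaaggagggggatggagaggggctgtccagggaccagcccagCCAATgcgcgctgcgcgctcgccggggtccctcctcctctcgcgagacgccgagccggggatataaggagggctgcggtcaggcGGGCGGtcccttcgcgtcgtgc
Slc25a5 (chrX:36795347-36795646, plus strand): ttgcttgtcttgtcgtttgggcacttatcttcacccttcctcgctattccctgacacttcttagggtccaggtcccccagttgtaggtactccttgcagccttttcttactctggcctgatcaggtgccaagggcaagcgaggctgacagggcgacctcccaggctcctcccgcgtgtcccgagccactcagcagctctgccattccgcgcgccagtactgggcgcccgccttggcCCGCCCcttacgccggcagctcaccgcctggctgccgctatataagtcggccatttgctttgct
Slc25a13 (chr6:6217124-6217423, minus strand): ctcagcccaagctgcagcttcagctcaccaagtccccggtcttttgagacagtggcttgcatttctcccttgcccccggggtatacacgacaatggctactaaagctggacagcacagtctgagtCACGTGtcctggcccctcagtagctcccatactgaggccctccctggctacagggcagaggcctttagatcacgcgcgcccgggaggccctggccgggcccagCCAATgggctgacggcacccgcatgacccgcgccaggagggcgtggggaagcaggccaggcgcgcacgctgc
Slc25a33 (chr4:149774218-149774517, minus strand): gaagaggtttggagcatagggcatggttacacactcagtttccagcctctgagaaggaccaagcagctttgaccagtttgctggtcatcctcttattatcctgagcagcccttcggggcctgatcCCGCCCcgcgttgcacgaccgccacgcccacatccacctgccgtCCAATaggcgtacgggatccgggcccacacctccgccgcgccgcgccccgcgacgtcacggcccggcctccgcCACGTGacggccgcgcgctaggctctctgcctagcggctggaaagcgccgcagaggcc
Slc25a42 (chr8:70212232-70212531, minus strand): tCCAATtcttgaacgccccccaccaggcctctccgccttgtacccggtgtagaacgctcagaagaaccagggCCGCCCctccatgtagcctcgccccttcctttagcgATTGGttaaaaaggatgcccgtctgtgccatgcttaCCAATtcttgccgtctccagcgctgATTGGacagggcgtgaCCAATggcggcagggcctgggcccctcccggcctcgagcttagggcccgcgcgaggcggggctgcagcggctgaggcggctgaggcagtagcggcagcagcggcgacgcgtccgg

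Of the 37 genes 30 had a window, 40 windows in all. The letters searched were TATAAA of the TATA box, CCAAT of the CCAAT box and GGGCGG of the GC box. The others were CACGTG of the E-box, TGACGTCA of the cyclic AMP element, CGCATGCG as the core of the NRF1 motif, and TCAAGGTCA of the ERR site. No searched motif contains another. The GC box was in 35 of the 40 carrier windows (87.5%) and in 35.7% of all 32851 windows, and CCAAT in 47.5% and 37.4%. TATAAA was in 0 carrier windows and in 13.6% of all windows. The NRF1 core was in 1 carrier window, of Mtch2 (2.5%), and in 1.87% of all, and the ERR site in 0 carrier windows and in 0.423% of all. The E-box was in 6 carrier windows (15%, against 7.15% of all), of the genes Slc25a13, Slc25a14, Slc25a15, Slc25a33 and Slc25a36, and was thus in 2 of the windows printed above. Windows of 1 gene can overlap, and those of Slc25a14 with an E-box hold the same match, so a site can count more than once. The cyclic AMP element was in 2 carrier windows (5% against 1.79%), of Slc25a25 and Slc25a36. Slc25a4 held CCAAT 2 times and the GC box 1 time, and Slc25a42 held CCAAT 5 times. Such a match describes letters in this window and no factor's binding was measured.

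Among the carriers of adenine nucleotides and phosphate, which feed and drain the ATP synthase, 1 of 5 tested rose and 3 fell after centring. The shares of all tested genes were 8.75% higher and 22.2% lower. The role groups here and below are small, and none was tested against these shares. Per-mouse values are given in the order of BPD mice 23, 28 and 36 and GFP mice 22, 29 and 31. The signal of Slc25a4 was 1324, 1308 and 559 in BPD and 149, 193 and 91.1 in GFP livers. The lowest BPD liver, mouse 36, was still above every GFP liver. The difference was 2.40 ± 0.33 (limma adjusted p = 0.0014), or 2.70 as deposited and 2.52 after quantile normalization (adjusted p = 0.0019 and 0.0037). Leaving out any mouse kept the call, with differences from 2.14 to 2.78. Of the 4 probe sets of Slc25a4, 3 were tested and all 3 were called higher, by 2.40 to 2.95, beside 8.29% of all tested probe sets called higher and 20.3% lower. The fourth was too dim to test, with signals of 19.2, 17.5 and 12.5 in BPD and 1.32, 4.38 and 0.816 in GFP livers, again without overlap. All 3 tested probe sets are of the kinds whose names mark that they can match several transcripts, so Slc25a4 has no value when those are left out and its level is uncertain to that extent.

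Slc25a5, the adenine nucleotide translocase of growing cells and of liver (ANT2), is the near relative of Slc25a4, and their probe sets may share sequence. Its signal was 8294, 8469 and 9818 in BPD and 10131, 9843 and 9529 in GFP livers, so BPD mouse 36 lay within the GFP range. On the centred scale the groups did not overlap. The difference of -0.46 ± 0.14 was called (adjusted p = 0.041) after centring, but it was -0.15 as deposited and turned to 0.16 after quantile normalization, not called in either (adjusted p = 0.31 and 0.30). The call was also lost on leaving out any mouse but BPD mouse 36, and with the mean of its probe sets (-0.37). Of its 8 tested probe sets 3 were called lower, 0 were called higher, and they ranged from -0.49 to -0.17. The phosphate carrier Slc25a3 had signals of 8482, 8216 and 8628 in BPD and 8796, 9021 and 9332 in GFP livers, which did not overlap. Its difference was -0.40 ± 0.13 (adjusted p = 0.048) after centring, but -0.10 as deposited and, turned in direction, 0.21 after quantile normalization, neither called. Its call was lost on leaving out any mouse. Neither of these abundant carriers showed a direction that all scalings share.

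**Figure D2:**
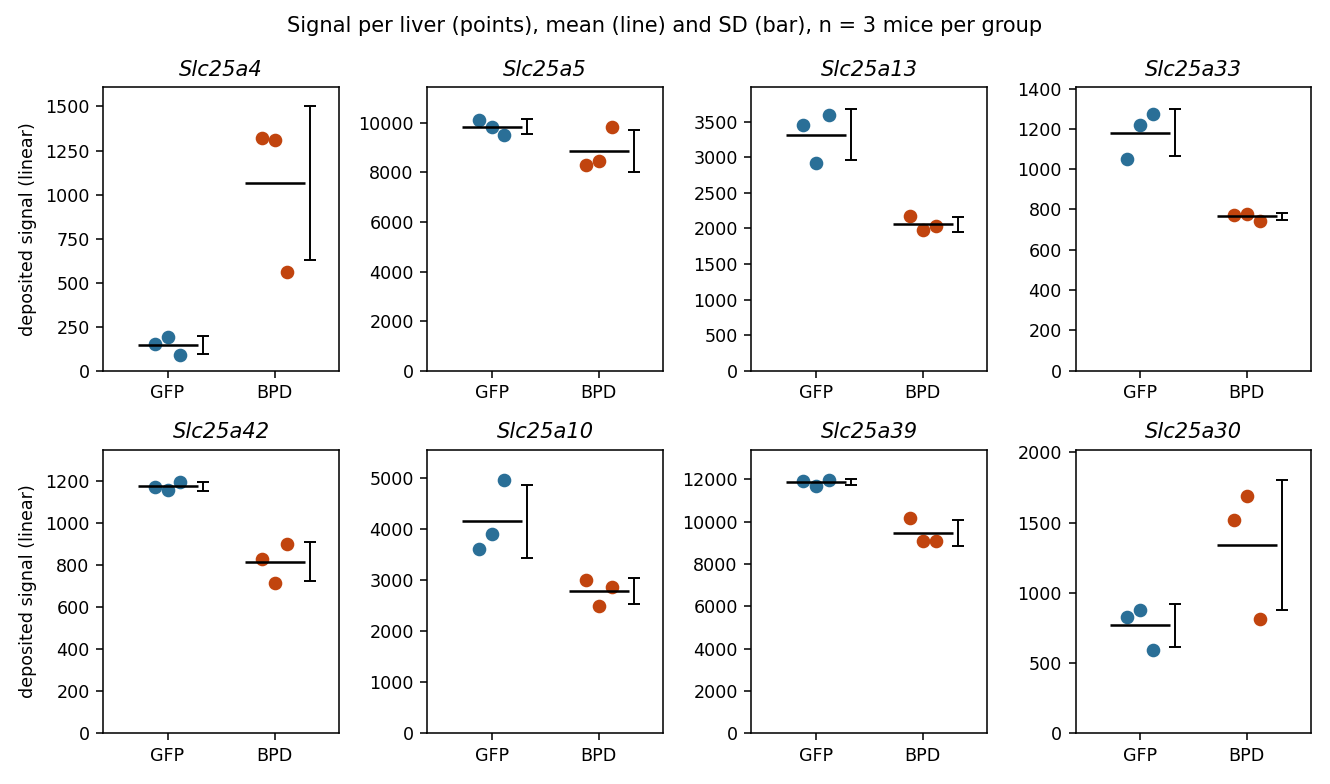
Deposited signal on a linear axis from 0 in each liver for 8 carriers, with the mean (line) and SD (bar) of 3 mice per group. All BPD livers lie above all GFP livers for Slc25a4 and below them for Slc25a13, Slc25a33, Slc25a42, Slc25a10 and Slc25a39, while the groups overlap for Slc25a5 and Slc25a30.

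The calcium-sensitive ATP-Mg/phosphate carriers, which load or unload the matrix pool of adenine nucleotides, differed in their calls. Slc25a23 had signals of 482, 499.7 and 919.6 in BPD and 802, 1089 and 1262 in GFP livers. The deposited signals overlapped, since BPD mouse 36 exceeded GFP mouse 22, while the centred values did not. It fell after centring (-1.06 ± 0.27, adjusted p = 0.019). It was not called under the other scalings (-0.76 and -0.86, adjusted p = 0.073 and 0.056), nor when mouse 23, 28 or 31 was left out. Slc25a25 was not called, with signals of 1753, 2397 and 3027 in BPD and 1931, 1547 and 1115 in GFP livers (0.34 ± 0.26, adjusted p = 0.35). Slc25a24 was too dim for the filter. Its signal was 41.3, 67.8 and 13.1 in BPD and 3.11, 2.02 and 2.69 in GFP livers without overlap, and the GFP values were below the added constant of 16.3. Fitted without the filter it differed by 1.16 ± 0.34 (adjusted p = 0.051), where 5.70% of all genes were called higher and 12.7% lower.

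Carriers of amino acids and glutathione were the largest group, with 9 tested members, of which 4 were called lower and 0 higher (limma, with 6 lower and 0 higher at an unadjusted p under 0.05). The shares of all genes called were 22.2% lower and 8.75% higher, and their share at the unadjusted p is not given here. Slc25a13, or citrin, is the liver's aspartate-glutamate carrier and serves both the urea cycle and the malate-aspartate shuttle. Its signal was 2177, 1971 and 2031 in BPD and 3449, 2914 and 3588 in GFP livers. The groups were clearly apart, and Slc25a13 fell 1.97-fold (-0.98 ± 0.18, adjusted p = 0.0041). It was -0.68 as deposited and -0.55 after quantile normalization (adjusted p = 0.0068 and 0.015), and the call held in each of 19 alternatives, with adjusted p from 0.0029 to 0.020.

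Slc25a39, which brings glutathione into mitochondria, had signals of 10178, 9107 and 9111 in BPD and 11940.2, 11712 and 11984 in GFP livers. It fell by 0.63 ± 0.14 (adjusted p = 0.0094), and all 3 of its probe sets were called lower, by 0.60 to 0.69. With the deposited scaling it was called too (-0.33, adjusted p = 0.033), whereas after quantile normalization it was at 0.0037 (adjusted p = 0.98).

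Slc25a44, a carrier of branched-chain amino acids, had signals of 559.6, 319 and 477 in BPD and 626, 578 and 1327 in GFP livers. The groups did not overlap, and GFP mouse 31 stood above the other GFP livers. The fall (-1.11 ± 0.35, adjusted p = 0.039) was not called under the deposited scaling (-0.81, adjusted p = 0.10) or quantile normalization (-0.95, adjusted p = 0.070). It was also lost on leaving out BPD mouse 28 or 36 or GFP mouse 22 or 31, and without GFP mouse 31 the difference was -0.73 (adjusted p = 0.094). These values are for its brightest probe set. For Slc25a44 the 3 probe sets ranged from -1.11 to -0.15, and 2 were called lower after centring. The second of these 2, at -0.82, was also called after quantile normalization (-0.70, adjusted p = 0.035) but not as deposited (-0.52, adjusted p = 0.068). Slc25a38, which carries glycine for haem synthesis, had signals of 379.6, 482 and 489.6 in BPD and 416, 658 and 592 in GFP livers, which overlap as deposited but not after centring. Its fall (-0.58 ± 0.18, adjusted p = 0.040) was called only after centring among the 3 scalings, and was lost on leaving out BPD mouse 23 or 28 or GFP mouse 29 or 31.

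The other 5 tested members of this group were not called. Slc25a15, the ornithine-citrulline carrier of the urea cycle, had signals of 7381, 4933 and 4576 in BPD and 7834, 5947 and 7861 in GFP livers. The high BPD mouse 23 lay within the GFP range, and the difference was -0.68 ± 0.23 (limma adjusted p = 0.056). It was -0.38 as deposited and -0.15 after quantile normalization (adjusted p = 0.19 and 0.57), and was called lower in 4 of 19 alternatives. The second tested probe set of Slc25a15 was at -0.16 ± 0.18 (adjusted p = 0.52). It turned to 0.14 as deposited and 0.043 after quantile normalization, not called in either. Slc25a47, a carrier found mainly in liver, was at -0.60 ± 0.23 (adjusted p = 0.071) with signals from 4327 to 6421 in BPD and from 5962 to 8036 in GFP livers. Slc25a29, a carrier of basic amino acids, had signals of 579, 1003 and 958 in BPD and 761, 1082 and 790.3 in GFP livers by its brightest probe set. These signals overlap as deposited, while the centred values do not. The brightest probe set was at -0.37 ± 0.21, but the other tested probe set was called lower after centring (-0.96), as deposited (-0.66) and after quantile normalization (-0.84). The 2 probe sets of Slc25a29 thus share a direction and differ in their call. The glutamate carrier Slc25a22 was at 0.15 ± 0.28, with an interval from -0.47 to 0.77, and Slc25a45 at -0.16 ± 0.17, which turned to 0.14 and 0.012 under the other scalings. Slc25a2 and Slc25a48 were too dim to test.

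Carriers of cofactors and pyrimidine nucleotides held the other falls that all scalings share. Of 6 tested members 3 were called lower and 0 higher (limma, with 3 lower and 1 higher at an unadjusted p under 0.05), beside 22.2% and 8.75% of all genes called. Slc25a33, a pyrimidine nucleotide carrier that supplies mitochondrial DNA and RNA synthesis, had signals of 774, 778 and 744 in BPD and 1049, 1220.5 and 1272 in GFP livers. All BPD livers lay below every GFP liver, a 1.88-fold fall (-0.91 ± 0.15, adjusted p = 0.0030). Slc25a42, which carries coenzyme A into the matrix, had signals of 827, 716 and 902 in BPD and 1171, 1154 and 1195 in GFP livers. These groups were also apart, with a 1.77-fold fall (-0.82 ± 0.18, adjusted p = 0.0087). As deposited and after quantile normalization the differences were -0.61 and -0.68 for Slc25a33 and -0.52 and -0.59 for Slc25a42, and both were called in each of 19 alternatives.

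Slc25a36, the other pyrimidine nucleotide carrier, was not called. Its signal was 269.8, 303 and 190.0 in BPD and 93.3, 189.9 and 90.9 in GFP livers, so that BPD mouse 36 and GFP mouse 29 nearly met. The difference was 0.69 ± 0.26 (adjusted p = 0.072), and it was called with the deposited scaling (0.99, adjusted p = 0.041), without BPD mouse 36 and without GFP mouse 29. Slc25a17, the peroxisomal carrier of coenzyme A and other cofactors, fell by 0.56 ± 0.19 (adjusted p = 0.047), with signals of 435, 428 and 479 in BPD and 455, 734 and 470.4 in GFP livers. The deposited signals overlapped, GFP mouse 29 alone was high, and the call was lost on leaving out any mouse. Slc25a51, which carries NAD+, was at 0.13 ± 0.22 by its brightest probe set and at -0.42 and -0.25 by the others, none called. The S-adenosylmethionine carrier Slc25a26 was at -0.31 ± 0.18, with signals from 146 to 148 in BPD and from 136 to 155 in GFP livers.

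Of 3 tested carriers of carboxylates and acylcarnitines 1 was called lower and 0 higher (limma, also 1 and 0 at an unadjusted p under 0.05), beside 22.2% and 8.75% of all genes called. Slc25a10, the dicarboxylate carrier, exchanges malate or succinate for phosphate and is abundant in liver and fat. Its signal was 3010.2, 2503 and 2859 in BPD and 3602, 3906 and 4965 in GFP livers, without overlap. It fell 1.82-fold (-0.86 ± 0.18, adjusted p = 0.0086), and its second probe set was called too (-0.73). For the brightest probe set the call held with the deposited scaling (-0.56, adjusted p = 0.027) and on leaving out any mouse. It did not hold with quantile normalization (-0.39, adjusted p = 0.073). The second probe set was not called as deposited (-0.43, adjusted p = 0.10) or after quantile normalization (-0.39, adjusted p = 0.15).

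Slc25a11, the oxoglutarate-malate carrier of the malate-aspartate shuttle, was at -0.05 ± 0.15, with an interval from -0.38 to 0.28. Its deposited signals of 1338, 1576 and 1431 in BPD and 1209, 1325 and 1115 in GFP livers did not overlap and were higher in BPD livers, which gave 0.25 as deposited and 0.24 after quantile normalization, not called. Its direction therefore turned with the scaling. The carrier Slc25a20, the carnitine-acylcarnitine carrier of fatty acid oxidation, had signals of 3388, 2569 and 3572 in BPD and 4515, 3193 and 2817 in GFP livers. The groups overlapped widely and no scaling called it (-0.43 ± 0.24 after centring, -0.13 as deposited and 0.032 after quantile normalization).

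None of the tested iron carriers, uncoupling protein relatives, outer membrane members or Slc25a53 was called, 8 genes in all, where 30.9% of all genes were called either way. By limma after centring 0 of these 8 had an unadjusted p under 0.05. Slc25a37 (mitoferrin 1), the iron importer of red cell precursors, had signals of 319, 500.4 and 520.3 in BPD and 339.9, 339 and 297 in GFP livers (0.11 ± 0.20). Slc25a28 (mitoferrin 2), its counterpart in other tissues, had signals of 466, 438 and 369 in BPD and 519, 386 and 336 in GFP livers, which overlap. It was at -0.25 ± 0.21, and at 0.052 as deposited. BPD mouse 23 lay inside the GFP range for Slc25a37. Of 9 tested erythroid markers 4 were called higher and 1, Alas2, lower (-1.62 ± 0.20), beside 8.75% and 22.2% of all genes. Of those 4, 3 had a GFP mean below the filter and were tested only through the BPD livers, so the count is no support.

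Slc25a30, a kidney-type carrier related to the uncoupling proteins, showed a split among the BPD livers. Its signal was 1518, 1687 and 812 in BPD and 829.9, 879.9 and 593 in GFP livers, so BPD mice 23 and 28 were high and mouse 36 was not. The difference was 0.44 ± 0.27 (adjusted p = 0.23), and 0.74 (adjusted p = 0.028) without mouse 36. Its 4 tested probe sets were all above 0, from 0.30 to 0.76, and none was called. Ucp3, an uncoupling protein of muscle, was near the filter, with signals from 77.2 to 131 in BPD and from 69.5 to 116 in GFP livers (-0.23 ± 0.25, and 0.075 as deposited). Ucp1, which makes heat in brown fat, was far below it, with signals from 2.76 to 5.03 in BPD and from 4.92 to 7.22 in GFP livers. Mtch1, a relative of the carriers in the outer membrane, had signals of 529, 558 and 480.3 in BPD and 519, 508 and 562 in GFP livers. Mtch2, which inserts proteins into that membrane, had signals of 1964, 2209.7 and 2980.3 in BPD and 2547, 2369 and 2193 in GFP livers. For both the deposited signals overlapped. After centring Mtch2 still overlapped, while for Mtch1 all BPD livers lay below every GFP liver. The outer membrane members Mtch1, Mtch2 and Slc25a46 were at -0.32 ± 0.15, -0.31 ± 0.20 and -0.38 ± 0.21, and at -0.021, -0.011 and -0.083 as deposited, and Mtch2 turned to 0.11 after quantile normalization. Slc25a53 was at -0.41 ± 0.21.

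The 6 carriers too dim to test were Slc25a24, Slc25a2, Slc25a14, Slc25a35, Slc25a48 and Ucp1. Slc25a2 had signals from 45.4 to 47.8 in BPD and from 42.3 to 65.6 in GFP livers and Slc25a35 from 38.4 to 45.6 in BPD and from 37.0 to 53.8 in GFP livers, which overlap. Fitted without the filter, 1 probe set of Slc25a48 had an adjusted p of 0.041 (-0.66), at signals from 1.96 to 3.73 in BPD and from 7.46 to 9.41 in GFP livers, all below the added constant.

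**Figure D3:**
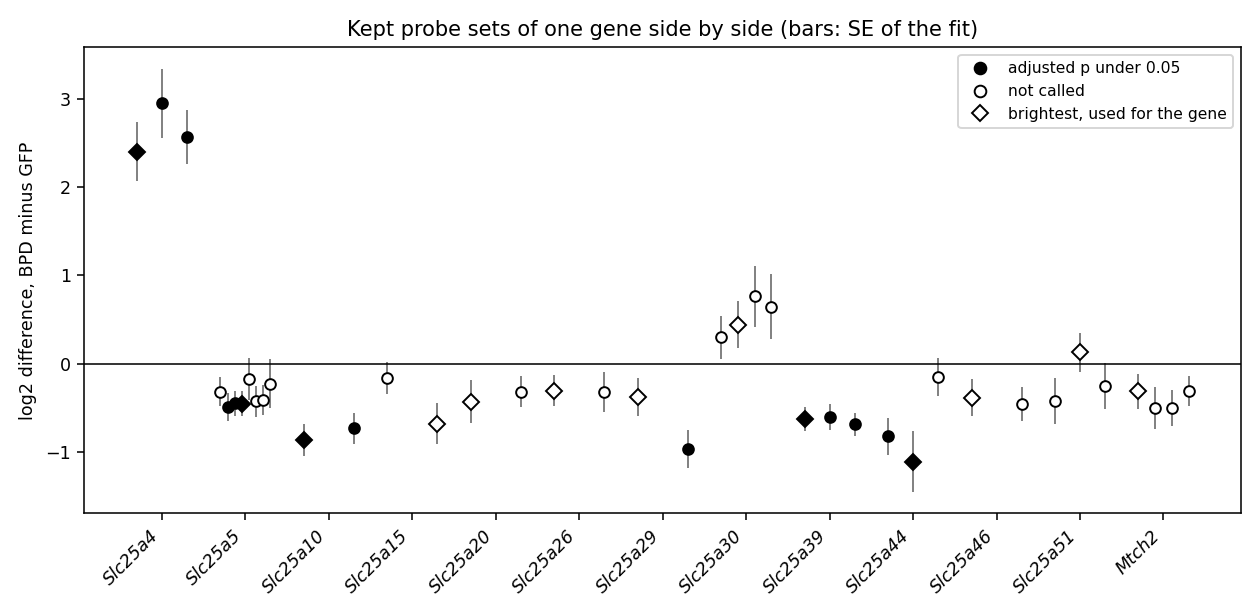
Log2 difference with its SE for each tested probe set of the 13 carriers that have several (n = 3 mice per group, filled symbols called, diamonds the brightest probe set). The 3 probe sets of Slc25a4 and the 3 of Slc25a39 are all called in 1 direction, and no gene has probe sets called in opposite directions.

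Setting 2 carriers against each other within a liver removes a constant that scales a whole array. Of 13 pairs listed, 7 had both members tested, and with 3 against 3 livers the exact 2-sided permutation test cannot give a p below 0.1. Slc25a5 minus Slc25a4 was 5.94, 5.56 and 6.47 in GFP and 2.63, 2.68 and 4.09 in BPD livers on the log2 scale, a change of -2.85. The groups did not overlap (exact permutation p = 0.1, 0.233 after adjustment over 7 pairs), and with quantile normalization the change was -2.35. Slc25a33 minus Slc25a36 was 3.28, 2.58 and 3.59 in GFP and 1.47, 1.31 and 1.88 in BPD livers, a change of -1.60 (-1.37 with quantile normalization). Slc25a10 minus Slc25a11 changed by -0.81 (-0.64), from 1.75 ± 0.34 to 0.94 ± 0.25 (SD, n = 3 each). In these 3 pairs the members changed unequally in every BPD liver against every GFP liver, with the same exact permutation p of 0.1.

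The other 4 pairs overlapped. The ornithine carrier Slc25a15 minus Slc25a13 changed by 0.30, Slc25a37 minus Slc25a28 by 0.36, Slc25a20 minus Slc25a29 by -0.054 and Mtch1 minus Mtch2 by -0.01, with exact permutation p from 0.2 to 0.9. With quantile normalization Slc25a20 minus Slc25a29 turned to 0.19 and Mtch1 minus Mtch2 moved to -0.29.

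**Figure D4:**
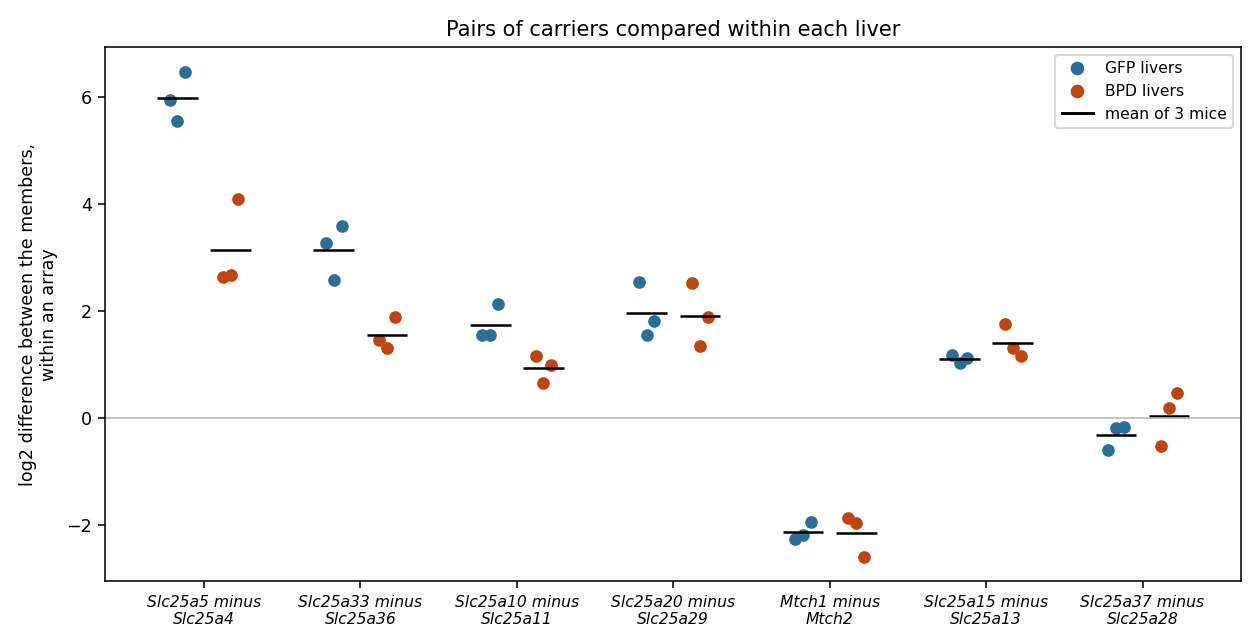
Difference of the log2 values of 2 carriers within each liver, by group, with the mean of 3 mice as a line. The BPD livers lie below the GFP livers for Slc25a5 minus Slc25a4, Slc25a33 minus Slc25a36 and Slc25a10 minus Slc25a11, and BPD mouse 36 lies nearest the GFP livers in the first of these.

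The enzymes on either side of these carriers were mostly lower. Of 27 tested enzymes that make or use carrier substrates 19 were called lower and 1 higher after centring, and 9 and 1 were called under all 3 scalings. The shares of all tested genes were 22.2% lower and 8.75% higher after centring, and 9.24% and 8.38% under all 3. Oat, the ornithine aminotransferase of the matrix, had signals of 1771, 3474 and 2174 in BPD and 13069, 11696 and 14940.2 in GFP livers and fell by 2.76 ± 0.22 (adjusted p = 1.8e-04). Cps1, the matrix enzyme that starts the urea cycle, fell by 0.96 ± 0.12 (adjusted p = 0.0010). The urea cycle enzymes Otc and Asl, which stand beside Slc25a15 and Slc25a13, fell by 1.43 ± 0.19 and 1.73 ± 0.24 (adjusted p = 0.0012 and 0.0015). Got1, the cytosolic aminotransferase of the malate-aspartate shuttle, fell by 1.44 ± 0.23 (adjusted p = 0.0023), and Acly, which splits the citrate exported from mitochondria, by 1.25 ± 0.18 (adjusted p = 0.0018). The one called higher after centring was Pck2, the mitochondrial form of phosphoenolpyruvate carboxykinase, with signals of 491, 409 and 238 in BPD and 50.5, 43.6 and 44.7 in GFP livers (2.30 ± 0.27, adjusted p = 7.5e-04). Its GFP signals lie below the filter of 98.8, so it was tested only through the BPD livers and had to differ. Another 3 enzymes were called higher as deposited and after quantile normalization but not after centring. Mdh2, the malate dehydrogenase of the matrix, which shares malate with Slc25a10 and Slc25a11, had signals of 9766, 8516 and 6925 in BPD and 4973, 4373 and 5621 in GFP livers, without overlap. It was at 0.44 ± 0.19 (adjusted p = 0.10), 0.74 as deposited (adjusted p = 0.010) and 0.99 after quantile normalization (adjusted p = 0.0033). Cs, which makes citrate, was at 0.18 ± 0.17, 0.48 and 0.55 in the same order, and Mthfd2, a folate enzyme of the matrix, at 0.50 ± 0.17, 0.80 and 0.52. The list was written with earlier results of these data known, and the difference in call rate between enzymes and carriers was not tested.

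Proteins that insert carriers into the membrane mostly did not pass. Of 16 tested members of the import machinery 1 was called lower and 0 higher (limma, with 5 lower and 0 higher at an unadjusted p under 0.05), and 0 were called under all 3 scalings. This stood beside 22.2% of all genes called lower and 8.75% higher after centring, and 17.6% either way under all 3. Timm22, the core of the complex that inserts carriers, was at -0.15 ± 0.18 and turned to 0.15 as deposited, and Timm8a1, a chaperone of the intermembrane space, was the one called (-0.57 ± 0.19, adjusted p = 0.048). Among 12 tested channels and transporters of other families 6 were called lower and 0 higher (limma, also 6 and 0 at an unadjusted p under 0.05), against the same 22.2% and 8.75%. Letm1, an ion exchanger of the inner membrane, was lower under all 3 scalings (-1.10 ± 0.18, adjusted p = 0.0030), and Mpc1, a subunit of the mitochondrial pyruvate carrier, fell by 0.97 ± 0.18 (adjusted p = 0.0048), though after quantile normalization its adjusted p was 0.057. The outer membrane channel Vdac1 fell by 0.50 ± 0.16 (adjusted p = 0.041), but was at 0.0093 after quantile normalization.

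Markers of other cells moved with the groups, and in bulk liver fewer cells of a type and less RNA per cell cannot be told apart. Beside the marker counts, 8.75% of all tested genes were higher and 22.2% lower after centring, and 8.38% and 9.24% under all 3 scalings. Of 16 tested macrophage markers 12 were higher and 0 lower, with a summed signal from 26925 to 53449 in BPD and from 6575 to 21920 in GFP livers. Of 10 tested markers of dividing cells 10 were higher (9630 to 12470 against 1629 to 2456), as were 4 of 11 stellate cell and matrix markers (5778 to 19446 against 3982 to 5232) and 5 of 7 neutrophil markers. Of 2 tested cholangiocyte markers 2 were higher, and 2 of 4 T, NK and B cell markers. Of the genes called higher, 4 of the dividing cell list, 3 neutrophil, 1 matrix, 3 erythroid, 2 cholangiocyte and 2 lymphocyte markers had a GFP mean below the filter. These were tested only through the BPD livers and had to differ, so the counts of those lists are no support, whereas this held for 0 of the 12 macrophage markers. BPD mouse 36, the lowest BPD liver for Slc25a4 and Slc25a30, was also the lowest for Lyz2, a lysozyme of macrophages, with 3382 against 7728 and 7322 in mice 23 and 28. It was the lowest as well for the neutrophil marker S100a8 and the matrix marker Col1a1, and the highest for the erythroid marker Hemgn. Other members of these lists did not all follow. Hbb-b2 of the erythroid list was lowest in mouse 36, with 99.2 against 539 and 294 in mice 23 and 28. Csf3r of the neutrophil list was lowest in mouse 23, with 260 against 334 and 274 in mice 28 and 36. These markers were picked after their values were seen, and no link of any of them to the carriers was tested. Of 8 brown fat and skeletal muscle markers measured here, 6 were too dim to test and 1 of the other 2 was higher, namely Fabp4, a fatty acid binding protein of fat cells and macrophages (2.03 ± 0.26, adjusted p = 0.0011, called under all 3 scalings). Among the dim ones were the muscle genes Ckm and Acta1, with signals of Ckm from 60.4 to 145 in BPD and from 84.7 to 119 in GFP livers and of Acta1 at most 80.9 in BPD and 58.4 in GFP livers. Of 14 tested hepatocyte markers 13 were lower and 0 higher after centring, and 4 were lower under all 3 scalings (summed signal 158469 to 173310 against 231606 to 239949). Cps1 and Otc, counted among the enzymes above, are in this list too and are among those 4. Of 9 tested endothelial markers 1 was higher and 1 lower. The part of these cell types in the carrier values was not tested.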

How the data were processed

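Livers of 3 BPD and 3 GFP mice were measured on 6 arrays. Groups and mouse numbers come from the sample titles, and the mice are unpaired. The table deposited by the authors holds signal intensities on a linear scale, made with MAS5 per the submitters' processing notes. Its version is not given in the sources used here. Control probe sets, 64 in number, were left out, and 0 columns went unused.

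Signals were analysed as log2(signal + 16.3), the constant being 10% of the median of all values, which understates changes of dim probe sets. Array medians differed 1.46-fold, over the 25% allowed, so each array was centred on its median. Probe sets with a mean above the 40th percentile (signal 98.8) were kept, 13575 of 22626, and a gene is its brightest kept probe set. Of the probe sets 20380 have 1 symbol, 691 several and 1555 none. Groups were compared with limma 3.58.1 in R 4.3.3 (lmFit, eBayes with trend, 2-sided, 4 residual and 5.44 prior degrees of freedom), with Benjamini-Hochberg adjustment over all kept probe sets. The fit was tested on simulated data.

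All tested members are named, with values per mouse where called or in a pair, and of other lists up to 4 called genes with the smallest p and genes that share a substrate with a carrier. Members and lists were chosen with earlier results of these data known. Genes outside the rule (Lyz2, S100a8, Col1a1, Hemgn, Hbb-b2, Csf3r, Alas2, Ckm, Acta1, Fabp4, Cs, Mthfd2, Vdac1, Timm22) were named after their values were seen. The mice are separate animals, and their number limits the precision. The ratio of 3' to 5' signal for Gapdh ran from 0.735 to 0.863 in BPD and from 0.785 to 0.900 in GFP arrays. The closing section gives the alternatives.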

Additional observations from a re-analysis of the deposited data

How the results depend on the processing

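The 12 carrier calls depended on the scaling and on single mice, while Slc25a13, Slc25a33 and Slc25a42 were called lower in all 19 alternatives run on them and Slc25a4 higher in all 18. The number of called carriers was 7 with the deposited scaling (2 higher, 5 lower), 4 with quantile normalization (1 and 3), 7 without the filter (6 lower), 7 with the Gapdh ratio as a covariate (6 lower) and 7 with arrays centred on the kept probe sets (6 lower), an alternative added after seeing the data. With the _a_, _s_ and _x_ probe sets left out 0 were higher and 8 lower by limma, since Slc25a4 then has no value. Leaving out a mouse gave between 6 and 11 calls, from 1 to 3 higher and from 5 to 8 lower. The fewest, 6, came without BPD mouse 28 or GFP mouse 31, and 3 were higher without BPD mouse 36. Shares of all genes are given above for the 3 scalings and for the fit without the filter. They are not given for the other alternatives, so these counts cannot be set against all genes. The median difference was -0.083 with the deposited scaling, -0.14 with quantile normalization and -0.28 centred on the kept probe sets, and from -0.46 to -0.32 with a mouse left out. Between 3 and 4 pairs did not overlap in each alternative run on the pairs.

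Of 574 values of single carriers 483 kept direction and call, 62 lost the call, 10 gained it and 19 turned. With the deposited scaling Ucp3 turned to 0.075, Slc25a28 to 0.052, Slc25a11 to 0.25 and Slc25a45 to 0.14. With quantile normalization Slc25a3 turned to 0.21, Slc25a20 to 0.032, Slc25a11 to 0.24, Slc25a45 to 0.012, Mtch2 to 0.11, Slc25a5 to 0.16 and Slc25a39 to 0.0037. Slc25a51 turned to -0.18 as the mean of its probe sets, Slc25a37 to -0.044 with the Gapdh covariate and Slc25a11 to 0.053 centred on the kept probe sets. With a mouse left out Slc25a51 ranged from -0.082 to 0.26 (negative without BPD mouse 23 or GFP mouse 29), Slc25a22 from -0.12 to 0.43 (negative without the same mice) and Slc25a37 from -0.035 to 0.30 (negative without BPD mouse 36). The cause was not tested. No paired analysis was possible because the groups share no mouse numbers.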
